A study of Mus musculus with 16 samples.

Results

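In mouse embryonic stem cells in which ERK signalling was switched on for 4 h and then blocked, 65 genes were higher at 2 h and 4 h and kept at least 80% of their rise after 2 h with a MEK inhibitor. They were chosen from 12215 genes with enough counts to test, out of 52636 deposited identifiers, and 323 genes met the same conditions on induction. A gene entered the set if its mean normalised count at 4h was at least 5 CPM (counts scaled to a common library size) and its rise from 0h to 4h was at least 0.6 in log2(mean CPM + 1). The rise at 2h had to exceed 0.4 of that rise, and the rise left in the inhibitor group had to be at least 0.8 of it. Cavin1 and gene models whose symbols begin with Gm, Hist or Mir were dropped. The share of the 4h rise left after the inhibitor is called the retained share here. The means of all 4 groups chose the genes, so their levels in these groups describe the choice and test nothing.

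The cells were CRAFR26 mouse embryonic stem cells, which carry a c-RAF kinase construct that 4-hydroxytamoxifen (4OHT) activates. All 16 cultures had spent 48 h with 250 nM of the FGF receptor inhibitor PD17 (PD173074) in place of the MEK inhibitor PD03 of their routine 2i/LIF medium, so every group shared that treatment and carried the construct. The 4 groups were uninduced cells (0h), cells with 250 nM 4OHT for 2 h (2h) or 4 h (4h), and cells with 4OHT for 4 h followed by a MEK inhibitor for 2 h (rev). Each group held 4 libraries, 2 replicates of clone 4 and 2 of clone 8. Each clone is a single line. No group received the 4OHT vehicle and none was kept for 6 h without the MEK inhibitor, so the inhibitor and the 2 further hours of culture cannot be told apart in rev. Nothing in the labels says that the replicates of a clone came from separately handled cultures, so p-values measure the spread between these samples.

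ERK is the last kinase of the cascade that runs from RAF through MEK, and in mouse embryonic stem cells it acts below the FGF receptor and favours the exit from the naive state. Active ERK phosphorylates ternary complex factors bound beside serum response factor (SRF) on CArG boxes, which starts the transcription of immediate-early genes and of feedback inhibitors such as the Sprouty and DUSP proteins. SRF also works with cofactors that respond to actin, and many of its target genes code for the cytoskeleton.

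The set held the Srf gene itself, and 4 of its 65 members had a CArG box in their promoter. These promoters are shown because the box is the binding site of the protein that Srf encodes. The sequences are from RefSeq on GRCm38.p6, written 5′ to 3′ on the strand of the gene, with the CArG boxes in capitals. Srf is shown over chr17:46556180-46556279 (minus strand), Vcl over chr14:20929148-20929215 (plus strand), Gsto1 over chr19:47854906-47854972 (plus strand) and Trip10 over chr17:57249280-57249359 (plus strand).
Srf: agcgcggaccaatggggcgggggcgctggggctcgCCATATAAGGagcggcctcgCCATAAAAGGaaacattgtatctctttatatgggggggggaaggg
Vcl: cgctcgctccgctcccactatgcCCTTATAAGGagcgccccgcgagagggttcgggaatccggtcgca
Gsto1: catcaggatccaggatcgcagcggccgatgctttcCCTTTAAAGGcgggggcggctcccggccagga
Trip10: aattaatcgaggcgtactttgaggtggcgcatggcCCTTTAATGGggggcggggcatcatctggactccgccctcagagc

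The Srf promoter held 2 CArG boxes, at -82 to -73 and -62 to -53 from the start of transcription, and the other 3 held 1 each. A promoter here is the window from 250 bases before to 50 bases after a RefSeq start, and 54 of the 65 members had an entry, with 70 windows between them. CArG boxes were present in 4 of these 70 windows (5.71%), in 535 of all 32851 windows (1.63%), in 9 of the 204 windows of the partly reverted genes described below (4.41%) and in 0 of the 45 windows of the reverted genes. The letters GCGTGGGCG or GCGGGGGCG, an EGR factor motif, were found on either strand in 7 windows of the set (10%) and in 3.47% of all windows, and those letters stood in the promoters of Arap2, Dido1, Gsto1, Inf2, Socs3 and Srf. The share was 14.2% in the windows of the partly reverted genes, above that of the set, and 2.22% in those of the reverted genes. In Gsto1 the EGR letters overlap the CArG box by 1 base. CCGGAAGT, the core of an ETS site, was found on either strand in 7 windows (10%, against 3.89% of all). CACGTG, an E-box, was found in 10 windows (14.3%, against 7.15%). The partly reverted and reverted genes held the ETS letters in 6.37% and 2.22% of their windows and the E-box in 12.3% and 8.89%. TGACTCA and its reverse complement TGAGTCA, the AP-1 site, were found in 3 windows (4.29%, against 5.2%), and TGACGTCA in 1 window (1.43%, against 1.79%). TATAAA was found on either strand in 6 windows (8.57%, against 13.6%). On the strand of the gene it stood in Meis2 alone, and the others read TTTATA. In the partly reverted genes these 3 shares were 4.41%, 4.41% and 9.8%, and in the reverted genes 4.44%, 8.89% and 4.44%, so that TGACGTCA had its lowest share in the set. The 32851 windows were not limited to genes tested here, so they include promoters of genes that did not pass the count filter. Inf2 gave the same EGR letters and E-box through 2 overlapping windows, and Marveld2 the same TATA letters. These matches describe letters in the windows and not bound sites.

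Library totals ranged from 2172651 to 12680303 counts, with a median of 6502783, and 3 counts corresponded to between 0.213 and 1.35 CPM. The 8 most abundant gene models took 42% to 62.4% of the counts at 4h and 55.1% to 80.4% in rev. The library of rev clone 8 replicate 2 stood apart, with the highest of these shares and the lowest TMM factor, 0.463. TMM factors scale each library to the bulk of its genes, and the choice of the set rests on them. With library size alone, 9 genes met the conditions and 5 of them were among the 65 (Bend3, Fam83h, Inf2, Msc and Socs3), while the median of all genes between rev and 0h moved from -0.01 to -0.32 on the log2 scale. Without the library of rev clone 8 replicate 2, 60 genes met them, 44 of which were among the 65. The 8 embryonic stem cell markers looked at, Pou5f1 and Nanog among them, were all measured, and their summed level lay between 1130 and 1480 CPM in all 16 libraries, although 6 of the 8 were called higher at 4h than uninduced and 6 lower after the inhibitor than at 4h. Primitive endoderm markers summed to between 31.7 and 67.3 CPM with 2 of 8 passing the count filter, and Gata6, Sox17 and Sox7 did not pass it. Fibroblast markers summed to between 1.87 and 7.21 CPM (2 of 8) and neural progenitor markers to between 26.1 and 47.8 CPM (3 of 6). These 3 lists reached their highest sums in rev libraries. Of the 3 neural progenitor markers tested, 2 were called higher in rev than at 0h and 2 than at 4h. For the fibroblast markers these counts were 1 and 0 of 2, and for the primitive endoderm markers 0 and 1 of 2. Over all genes 12.4% and 7.93% were so called, and the part of these markers in the results was not tested.

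**Figure D1:**
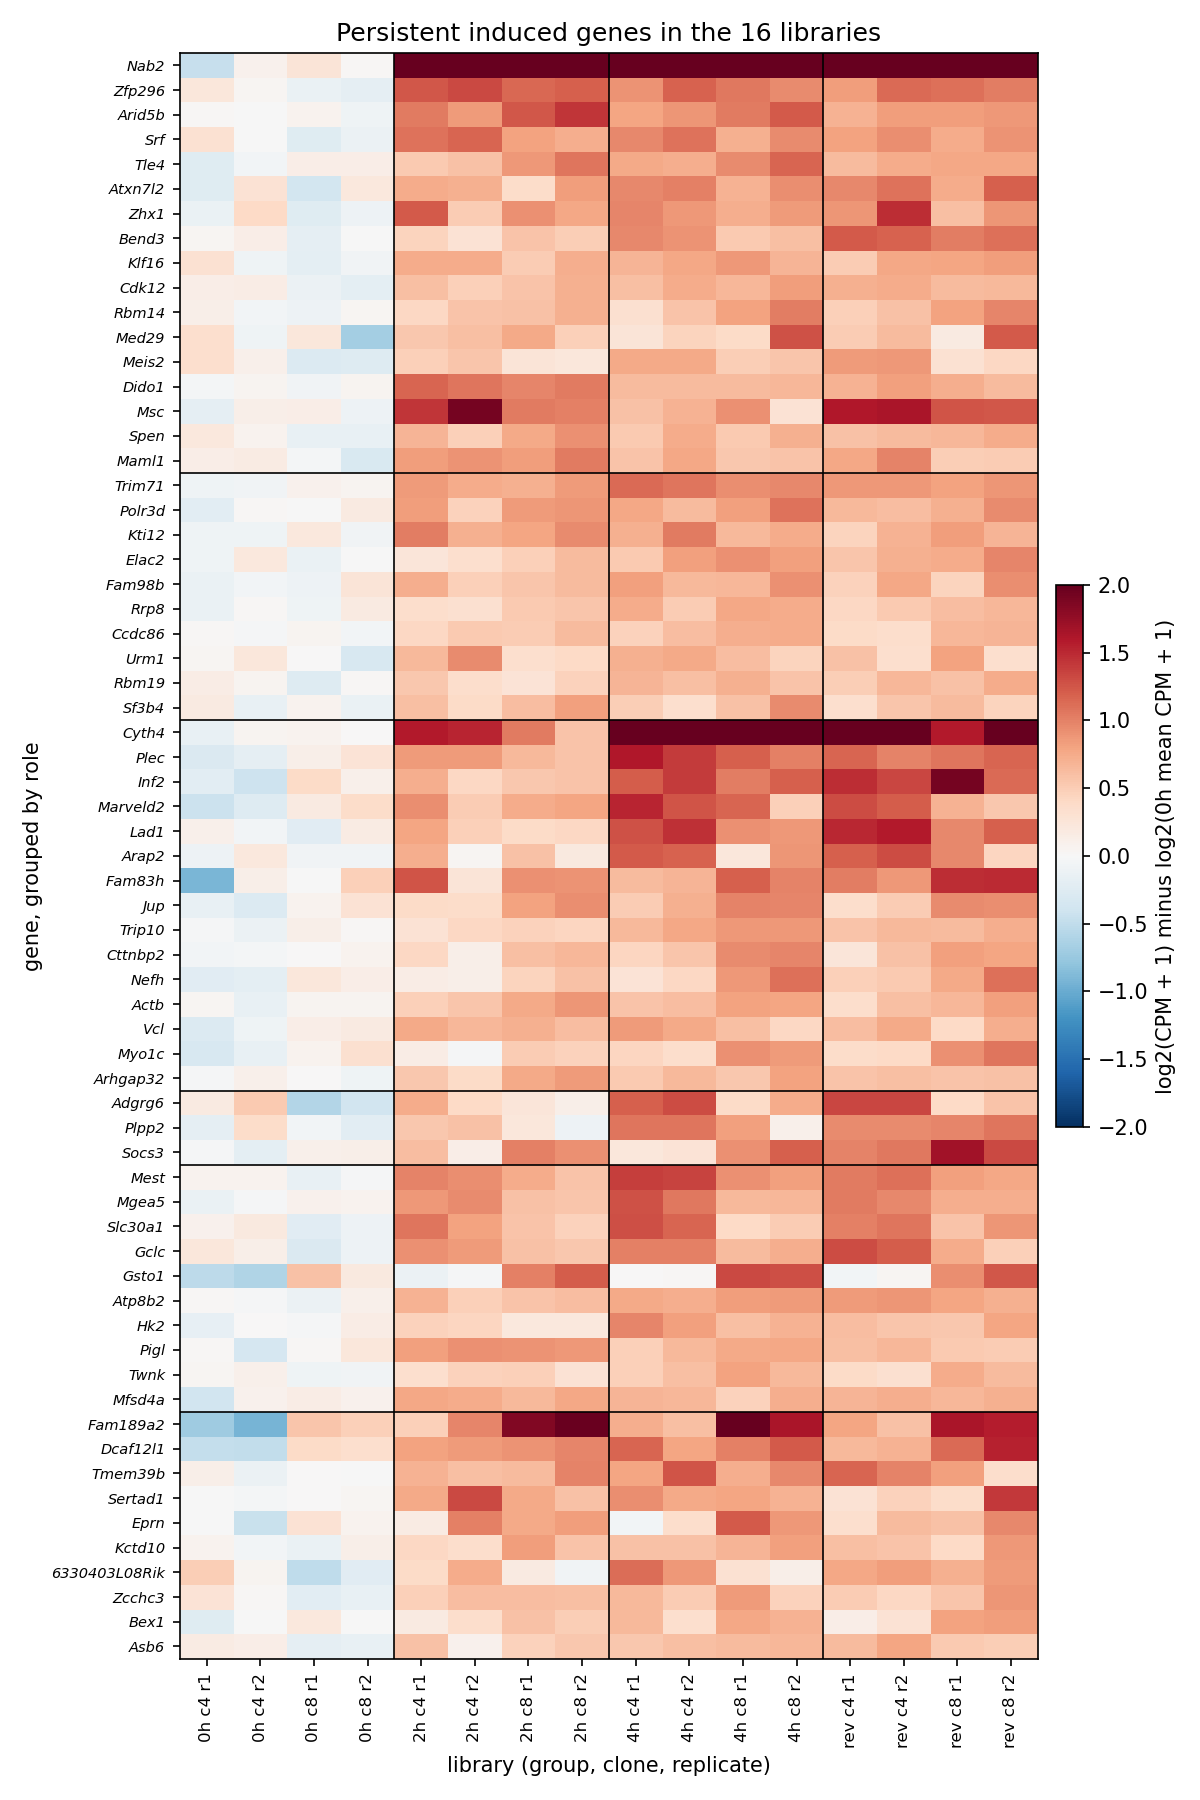
Levels of the 65 persistent genes (rows, grouped by role) in the 16 libraries (columns, by group, clone c4 or c8 and replicate r1 or r2), as log2(CPM + 1) minus the same value of the 0h mean. Colours saturate at -2 and 2, which 2 genes, Nab2 and Cyth4, exceeded. Most cells from 2h through rev lie above the 0h mean, as the choice of genes requires, while Gsto1 in clone 4 stays close to it.

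Of the 65 members, 63 were annotated as protein coding. The rise at 4h had a median of 0.78 and a range of 0.61 to 2.66 in log2(mean CPM + 1), and 11 members reached 1 or more. The median retained share was 94.8%, with a range from 80.3% to 226%, and in 25 members it was 100% or more. At 2h the median member had made 82.5% of its 4h rise. In 18 members the 2h mean was as high as or higher than the 4h mean, and in 15 the 2h rise was under 60%. Mean levels at 4h ran from 5.3 to 1900 CPM with a median of 31.6, and 14 members were under 10 CPM. All 4 rev libraries lay above all 4 0h libraries in 60 members, against 9.59% of all genes tested. The exceptions were Adgrg6, Gsto1, Bex1, Meis2 and Med29. Exons of 28 members overlapped those of another gene, 26 of them on the opposite strand, and reads there cannot be told apart because the strand setting of the counting is not given.

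Edges of the set were narrow. Rrp8, a methyltransferase of ribosomal RNA, entered it with a retained share of 0.803 and Hk2 (hexokinase 2) with 0.807, while Jarid2, a Polycomb cofactor, missed it with 0.7998 and Hmox1, heme oxygenase, with 0.7996. Their mean levels show how small these differences were. Jarid2 stood at 207, 291, 374 and 332 CPM at 0h, 2h, 4h and in rev, and Hmox1 at 29.0, 45.8, 50.3 and 45.0 CPM. Rrp8 stood at 13.5, 18.7, 22.6 and 20.5 CPM.

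Transcription and chromatin regulators were the largest role group, with 17 members, a median 4h rise of 0.75 and a median retained share of 104%. Nab2, a corepressor that binds EGR transcription factors, had the largest rise of the whole set. Nab2 (chr10:127660918-127668568 on GRCm38, minus strand) was at 3.26, 5.22, 5.95 and 4.92 CPM at 0h, in the order clone 4 replicates 1 and 2 and clone 8 replicates 1 and 2 that is kept below. It was at 38.7, 37.2, 34.5 and 30.7 CPM at 2h, at 45.1, 40.3, 30.0 and 28.2 at 4h, and at 29.1, 32.6, 26.7 and 24.3 in rev. Every library after induction was above every 0h library, clone 4 was above clone 8 in the 3 later groups, and 4h and rev overlapped. The 4h level was 7.10-fold above 0h (log2 fold change 2.83, SE 0.13), the rev level 5.51-fold (2.46, SE 0.14). Nab2 was the only member called lower in rev than at 4h, where 8.43% of all genes were called. That call is lost without 4h clone 4 replicate 1 or without rev clone 4 replicate 1, and without the clone term, when 0 members are called. Plec was called as well with library size alone, without the low-count filter, on the compared groups only and without 4h clone 8 replicate 2. Trim71 was added with DESeq2, and Sertad1 without rev clone 8 replicate 2. Exons of Nab2 overlap those of Stat6 and Nemp1 on the opposite strand.

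Srf, which encodes serum response factor, was at 26.9, 21.6, 18.3 and 20 CPM at 0h, 47.4, 49.9, 38.7 and 36.6 at 2h, 43.1, 47.2, 36.3 and 42.6 at 4h, and 38.7, 42.1, 37.1 and 41.5 in rev. All 12 induced libraries lay above all 0h libraries, and the 3 induced groups overlapped with one another. Its log2 fold change against 0h was 0.98 at 2h, 0.97 at 4h and 0.87 in rev, with SEs of 0.09, 0.09 and 0.10.

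Zfp296, a zinc finger protein of pluripotent cells, had its highest level at 2h, where all libraries were above all rev libraries. It was at 29.9, 26.1, 23.0 and 22.1 CPM at 0h, 61.5, 64.4, 57.2 and 59.1 at 2h, 48.2, 58.8, 53.5 and 49.7 at 4h, and 45.7, 56.7, 55.3 and 52.7 in rev. Its exons overlap those of Gemin7 on the opposite strand. The rev and 4h means, 52.6 ± 4.88 and 52.5 ± 4.71 CPM (SD, n = 4), differed by less than the spread between libraries. Arid5b, a DNA-binding subunit of a histone demethylase complex, was at 139, 137, 144 and 129 CPM at 0h, 284, 249, 325 and 371 at 2h, 238, 254, 284 and 323 at 4h, and 222, 247, 245 and 252 in rev. Its 4 rev libraries fell in a narrower band than its 4h libraries and overlapped with them.

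Cdk12, a kinase of the RNA polymerase II tail, and Spen, a large corepressor, were among the 5 most abundant members at 4h once the 12 with the largest rise are set aside. Cdk12 was at 130, 132, 109 and 103 CPM at 0h, 181, 166, 176 and 195 at 2h, 180, 198, 189 and 212 at 4h, and 195, 198, 185 and 186 in rev. Spen was at 135, 122, 104 and 104 CPM at 0h, 187, 161, 197 and 220 at 2h, 168, 194, 167 and 190 at 4h, and 174, 180, 185 and 194 in rev. In both genes the 0h libraries were below all others, and 2h, 4h and rev overlapped. The retained share was 96.2% for Cdk12 and 104% for Spen. Exons of Spen overlap those of Zbtb17 on the opposite strand.

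A few regulators were chosen for mention after their values were seen, because rev was called higher than 4h or 4h lower than 2h. Msc, the repressor musculin, was at 4.07, 5.22, 5.31 and 4.38 CPM at 0h, 14.4, 20.6, 10.8 and 10.5 at 2h, 7.59, 8.29, 9.87 and 6.05 at 4h, and 16.4, 16.9, 12.8 and 12.6 in rev. Its 4h libraries lay below all 2h and all rev libraries, so its retained share of 226% was the highest of the set. Bend3, a repressor at CpG-rich DNA, was at 28.2, 30.3, 24.0 and 27.3 CPM at 0h, 37.7, 33.7, 41.1 and 39.1 at 2h, 54.6, 52.1, 39.7 and 42.1 at 4h, and 65.3, 63.6, 57.0 and 59.9 in rev. Rev lay above all 4h libraries in Bend3, with a log2 fold change of 0.37 (SE 0.09). Dido1, a PHD finger protein, and Maml1, a coactivator of Notch, were called lower at 4h than at 2h, as was Msc, and 3.52% of all genes were so called. Maml1 lost this call without 2h clone 8 replicate 1, 2h clone 8 replicate 2, 4h clone 4 replicate 1 or 4h clone 8 replicate 1, and with DESeq2. Without the clone term Dido1 alone was called, and with library size alone 0 of the 3 were. Mean levels of Dido1 were 88.8, 187, 139 and 147 CPM, and those of Maml1 were 19.6, 37.7, 30.7 and 32.7 CPM, at 0h, 2h, 4h and in rev.

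Other members of this role group included Tle4, a Groucho corepressor, at a mean of 57.7 CPM at 0h, 109 at 4h and 96.6 in rev, and Klf16, a Krüppel-like factor, at 25.8, 44.2 and 43.6. Meis2, a homeodomain protein, was at a mean of 25.0 CPM at 0h, 39.6 at 4h and 39.3 in rev, and its rev libraries, from 31.0 to 46.5, overlapped with 0h, from 20.6 to 31.8. Rbm14, an RNA-binding coactivator, was at 57.7, 94.1 and 96.0 CPM and shares exons with Gm21992 on the same strand. Zhx1, which shares exons with Gm29394, and Atxn7l2 and Med29 had 4h means of 5.30, 7.19 and 6.34 CPM, close to the minimum of 5.

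RNA processing and translation genes made up 10 members, with a median 4h rise of 0.73 and a median retained share of 83.7%; none of the 10 reached 100%. Trim71, an RNA-binding ubiquitin ligase of early embryonic cells also known as Lin41, was at 193, 194, 216 and 213 CPM at 0h, 367, 342, 336 and 369 at 2h, 450, 429, 388 and 398 at 4h, and 371, 371, 357 and 375 in rev. Its rev libraries lay below all 4h libraries and above all 0h libraries, at 2.04-fold over 0h at 4h and 1.80-fold in rev. The other 9 members were Polr3d (an RNA polymerase III subunit), Elac2 (a tRNA 3′ end nuclease), Kti12 and Urm1 (tRNA modification), Rrp8 and Rbm19 (ribosomal RNA maturation), Fam98b (a tRNA ligase complex subunit), Sf3b4 (a splicing factor) and Ccdc86. Rbm19 kept the largest share of its rise among them, at 97.8%, with means of 22.8, 30.6, 36 and 35.7 CPM at 0h, 2h, 4h and in rev. Elac2 followed with 97.1% and means of 27.2, 37.0, 47.3 and 46.5 CPM.

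The cytoskeleton, cell junctions and regulators of membrane trafficking accounted for 15 members, with a median 4h rise of 0.81 and a median retained share of 91.5%. Actb, cytoplasmic beta-actin, was the most abundant member, at 1200, 1050, 1220 and 1210 CPM at 0h, 1630, 1710, 1980 and 2160 at 2h, 1730, 1790, 2050 and 2030 at 4h, and 1500, 1770, 1850 and 2070 in rev. Every induced library exceeded every 0h library, and the 3 induced groups overlapped. Per kilobase of annotated exon, Actb stood at 437 CPM per kb at 0h and 708 at 4h, against 7.5 and 14.6 for Srf. Vcl, vinculin, which anchors actin at adhesions, was at 34.5, 39.2, 45.8 and 47.1 CPM at 0h, 71.1, 66.6, 69.2 and 64.5 at 2h, 76.1, 71.5, 63.6 and 56.0 at 4h, and 64.2, 71.2, 55.5 and 69.4 in rev. Its induced libraries all lay above its 0h libraries, and its exons overlap those of Ap3m1 on the opposite strand.

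Plec, plectin, which links intermediate filaments to other structures, was at 51.9, 55.6, 69.1 and 77.1 CPM at 0h, 115, 115, 99.8 and 94.3 at 2h, 194, 169, 147 and 129 at 4h, and 143, 127, 134 and 143 in rev. The 4h libraries were above all 2h libraries, and clone 4 was above clone 8 at 2h and 4h but below it at 0h. The retained share of Plec was 0.755 in clone 4 alone and 1.004 in clone 8 alone. In the clone 4 libraries rev was called lower than 4h (log2 fold change -0.42, SE 0.10, edgeR adjusted p = 0.0021). Plec shares exons with Parp10 on the same strand. Lad1, ladinin of the basement membrane zone, was at 13.9, 12.4, 10.9 and 14.6 CPM at 0h, 23.2, 18.4, 17.1 and 17.5 at 2h, 32.7, 37.5, 25.3 and 24.5 at 4h, and 38.6, 40.8, 26.2 and 31.1 in rev. It had its highest mean in rev, 34.2 ± 6.76 CPM against 30.0 ± 6.23 at 4h (SD, n = 4), a difference smaller than the spread over both clones, while within each clone both rev libraries lay above both 4h libraries. Marveld2, tricellulin of tight junctions, was at 1.36, 1.64, 2.57 and 3.10 CPM at 0h, 5.05, 3.5, 4.31 and 4.47 at 2h, 8.14, 6.54, 6.08 and 3.42 at 4h, and 6.82, 6.30, 4.14 and 3.61 in rev. Its lowest 4h and rev libraries, both clone 8 replicate 2, were only slightly above the highest 0h library.

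Cyth4, an exchange factor for ARF GTPases, was almost absent before induction, with 3 counts over the 4 0h libraries and no library above 1. It was at 2.33, 2.19, 1.27 and 0.639 CPM at 2h, 7.37, 6.78, 3.99 and 3.95 at 4h, and 4.05, 6.52, 2.32 and 4.96 in rev. From the summed counts, 161 at 4h and 93 in rev, the ratio to 0h was 52.1 at 4h (95% interval 17.5 to 255) and 36.2 in rev (12 to 179). These exact binomial intervals cover counting error only. Inf2, a formin, was at 1.36, 1.04, 2.57 and 1.92 CPM at 0h, 3.5, 2.63, 2.96 and 3.05 at 2h, 5.28, 6.19, 4.56 and 5.26 at 4h, and 6.61, 5.86, 9.28 and 4.96 in rev. In Inf2 the 4 groups rose in order up to 4h without overlap, and rev overlapped with 4h.

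In 7 of the 15 cytoskeleton, junction and trafficking genes, namely Cyth4, Inf2, Lad1, Myo1c, Nefh, Plec and Trip10, 4h was called higher than 2h. It was so in 14 of all 65 members, a count shaped by the choice, which used both means, and in 3.8% of all genes. That count over the members was 8 without 4h clone 4 replicate 2 and 9 without 2h clone 4 replicate 1. Without the clone term it was 5 (Cyth4, Hk2, Lad1, Plec and Trip10), and with library size alone it was 1 (Cyth4). Trip10, an F-BAR protein with a CArG box in its promoter, showed the pattern with little spread, at means of 24.1 ± 1.67, 32.1 ± 1.65, 42.5 ± 3.00 and 38.3 ± 1.74 CPM at 0h, 2h, 4h and in rev (SD, n = 4). Nefh, the heavy neurofilament subunit, was at means of 18.8, 24.1, 31.3 and 32.1 CPM. Arhgap32, a GTPase-activating protein, had made its whole rise by 2h, at 34.6, 54.7, 54.4 and 52.3 CPM. Arap2, a GTPase-activating protein for ARF proteins, was at 6.79, 9.38, 13.9 and 14.7 CPM, Cttnbp2, a cortactin-binding protein, at 8.77, 12.5, 15.4 and 14.1, and Fam83h, a keratin-associated protein, at 2.41, 5.23, 5.34 and 7.05.

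**Figure D2:**
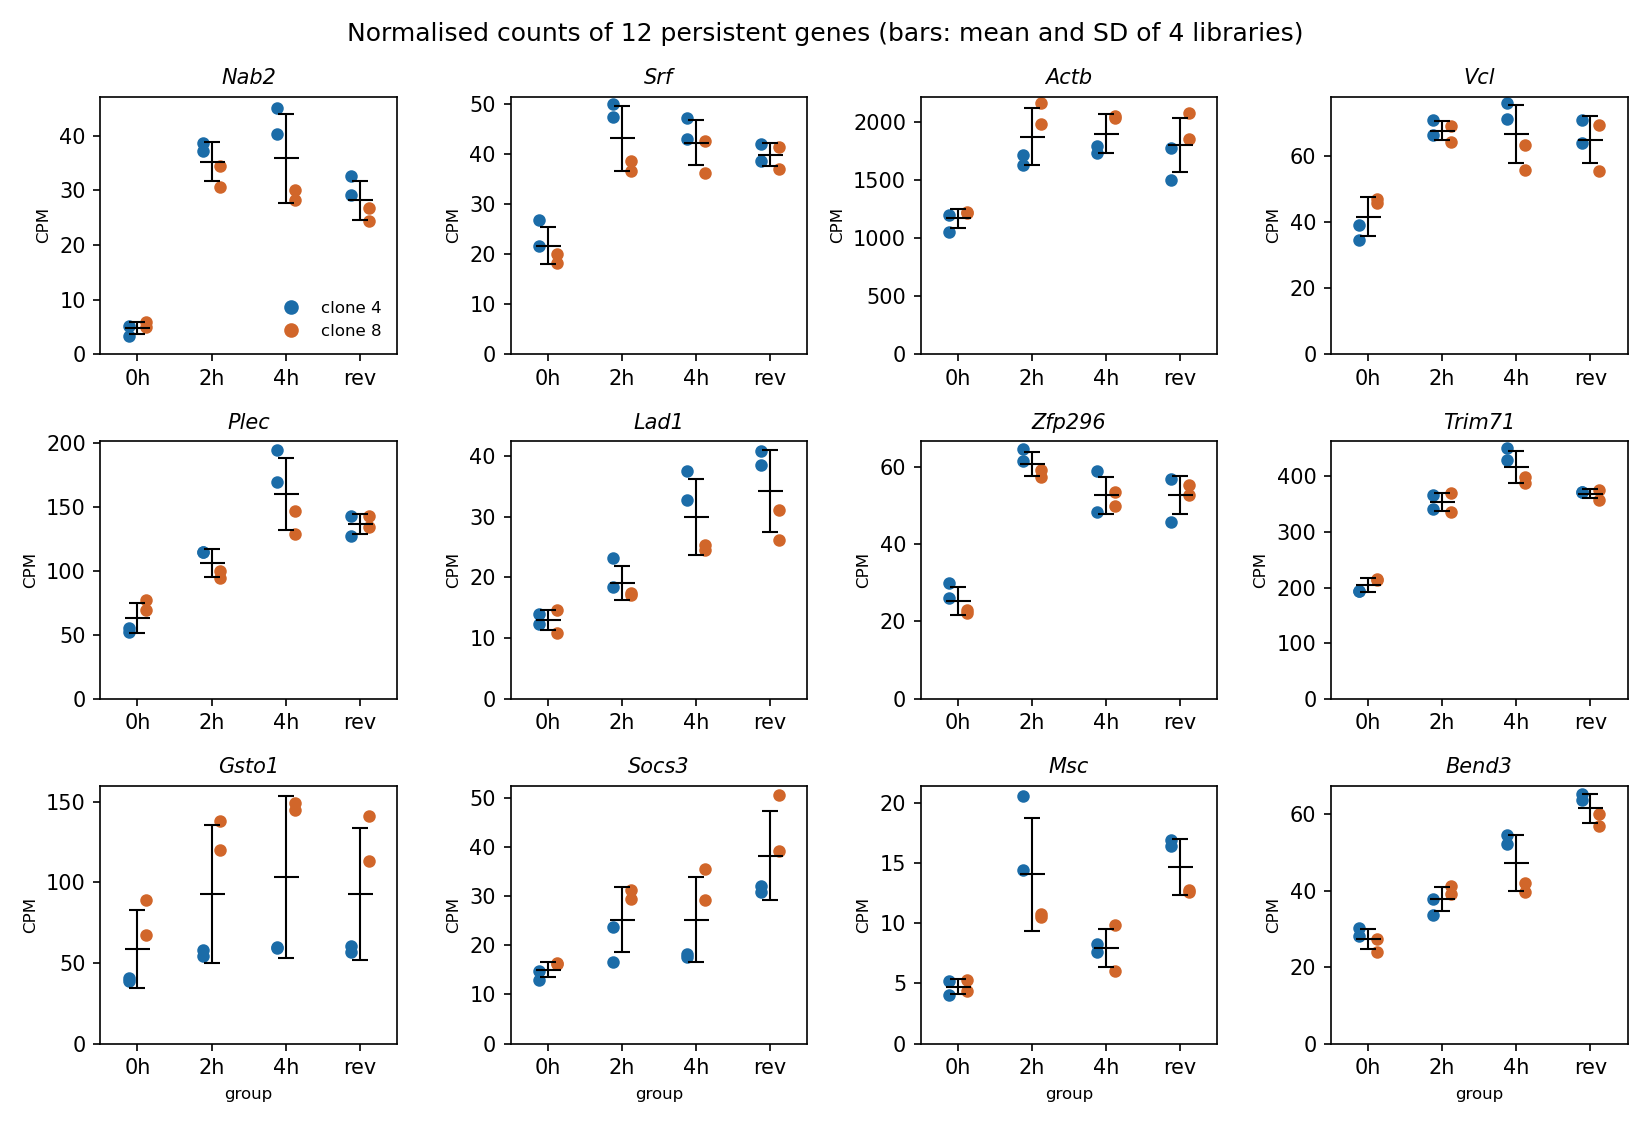
Normalised counts (CPM, vertical axes from 0) of 12 persistent genes in each library at 0h, 2h, 4h and in rev. Dots are libraries of clone 4 (blue) and clone 8 (orange), and bars give the mean and SD of 4 libraries. Nab2 rises about as far by 2h as by 4h, Plec and Lad1 rise further between 2h and 4h, and Bend3 and Msc are higher in rev than at 4h.

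Signalling genes were few. Socs3, the feedback inhibitor of LIF and JAK-STAT signalling, was at 14.7, 13, 16.1 and 16.4 CPM at 0h, 23.7, 16.6, 31.2 and 29.3 at 2h, 17.7, 18.3, 29.1 and 35.5 at 4h, and 30.9, 32.1, 50.5 and 39.2 in rev. Within each clone every rev library was above every 4h library, and with Bend3 and Msc it was 1 of 3 members called higher in rev than at 4h, where 7.93% of all genes were called. All 3 calls held without any 1 library. Without the clone term the call of Socs3 was lost, and with library size alone 0 members were called. Adgrg6, an adhesion G protein-coupled receptor, was at 11.1, 14.3, 6.11 and 7.16 CPM at 0h, 16.8, 13.1, 11.6 and 10.6 at 2h, 23.4, 25.3, 12.9 and 16.8 at 4h, and 26.0, 26.1, 13.1 and 14.9 in rev. Groups of Adgrg6 overlapped because clone 8 was lower throughout, while within each clone the 4h and rev libraries were above the 0h libraries. Plpp2, a lipid phosphate phosphatase, had means of 2.89, 3.91, 5.83 and 6.71 CPM, and it was 1 of 2 members not called at 2h against 0h. The other was 6330403L08Rik, a transcript antisense to Pdgfa.

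Metabolism and transport contributed 10 members, with a median 4h rise of 0.80 and a median retained share of 90%. Hk2, the inducible hexokinase of glycolysis, was at 98.9, 112, 110 and 124 CPM at 0h, 153, 150, 129 and 129 at 2h, 221, 197, 170 and 181 at 4h, and 172, 164, 163 and 193 in rev. It rose in 2 steps, with all 4h libraries above all 2h libraries, and rev overlapped with 4h. Mgea5, the enzyme that removes O-GlcNAc from proteins, was at 80.7, 87.4, 94.6 and 93.4 CPM at 0h, 164, 172, 134 and 131 at 2h, 217, 187, 140 and 142 at 4h, and 184, 174, 148 and 148 in rev. The clones were apart in every group, with clone 8 above clone 4 at 0h and below it in the other groups. Gsto1, a glutathione transferase, was at 40.5, 38.5, 89.2 and 67.5 CPM at 0h, 54.0, 58.2, 120 and 138 at 2h, 59.4, 59.7, 149 and 145 at 4h, and 56.6, 60.6, 113 and 141 in rev. Its clone 4 libraries after induction stayed below the 0h libraries of clone 8, while within each clone all induced libraries were above 0h.

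Mest, an imprinted gene for a hydrolase-like protein, was at 12.2, 12.2, 10.3 and 11.3 CPM at 0h, 23.8, 22.8, 20 and 17.5 at 2h, 31.5, 30.8, 22.6 and 21.0 at 4h, and 24.7, 25.8, 21.0 and 20.3 in rev. Clone 4 was above clone 8 in all 4 groups, and its exons overlap those of Copg2 on the opposite strand. Gclc, the catalytic subunit of the first step of glutathione synthesis, reached its highest mean in rev, at 25.2, 42.4, 46.2 and 50.5 CPM. Slc30a1, a zinc exporter, stood at 25.5, 43.4, 48.1 and 48.3 CPM, and Atp8b2, a phospholipid flippase, at 34.3, 52.1, 60.2 and 60.8 CPM. Twnk (the mitochondrial DNA helicase), Pigl (GPI anchor synthesis) and Mfsd4a (a transporter) completed the group, with retained shares of 83.5%, 87.1% and 110%.

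Among the other 10 members, Fam189a2, a transmembrane protein gene, was at 1.90, 1.49, 5.95 and 5.56 CPM at 0h, 5.57, 8.32, 16 and 17.5 at 2h, 6.82, 6.19, 17.8 and 13.7 at 4h, and 7.14, 6.08, 13.6 and 13.1 in rev. Clone 8 was above clone 4 in every group, and 4h and rev lay above all 0h libraries only narrowly in clone 4. Dcaf12l1, on the X chromosome, was at 8.42, 8.35, 16.2 and 15.6 CPM at 0h, 22.0, 22.8, 23.6 and 25.0 at 2h, 28.4, 21.8, 25.4 and 29.7 at 4h, and 19.7, 20.4, 27.8 and 37.4 in rev. Clone 8 was above clone 4 at 0h, at 2h and in rev, and all induced libraries were above all 0h ones. The long noncoding RNA Eprn had means of 3.00, 5.59, 5.41 and 5.25 CPM at 0h, 2h, 4h and in rev. Bex1, also X-linked, retained 88.3% of its rise over all libraries and 0.529 of it in clone 4 alone. Sertad1 had means of 4.64, 9.42, 8.80 and 8.22 CPM, and its rev mean rested on clone 8 replicate 2, which stood at 14.0 CPM while the other 3 libraries lay between 5.86 and 6.73. Tmem39b, Kctd10, Zcchc3 and Asb6 retained 91.5%, 92.0%, 96.4% and 100.2%.

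All 65 members were called higher at 4h than at 0h and in rev than at 0h, and 63 at 2h, by edgeR with an adjusted p under 0.05. The choice of the genes fixes these counts, and they stand beside 17.2%, 12.4% and 11.4% of all genes in the same 3 comparisons. At 2h 0 members were called lower than at 0h, where edgeR called 9.68% of all genes. The median log2 fold change of the members was 0.70 at 2h, 0.81 at 4h and 0.75 in rev against 0h, and over all genes it was -0.02, -0.02 and -0.01. With library size alone as the scaling, 62 members were called at 4h, 14 in rev and 21 at 2h, where 554, 105 and 204 of all 12215 genes were.

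**Figure D3:**
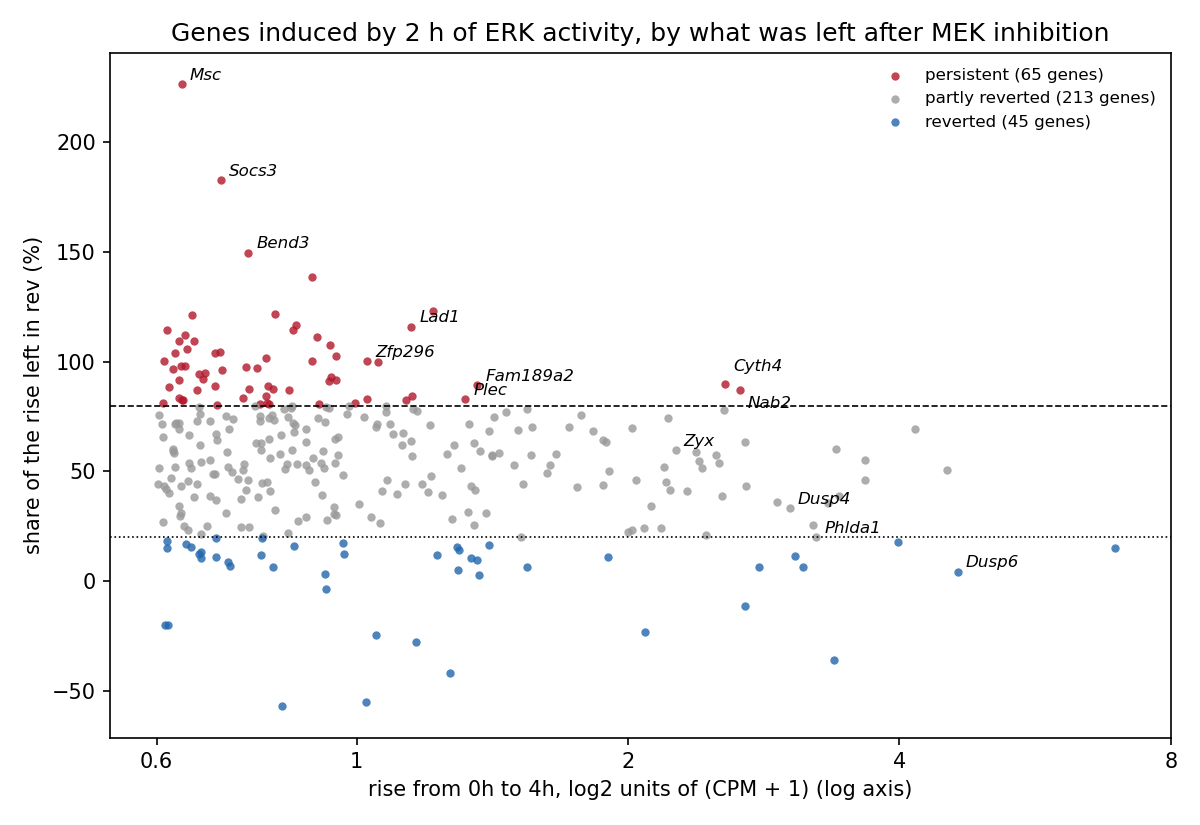
Retained share (vertical axis, % of the 4h rise) against the size of the 4h rise (horizontal axis, difference in log2(mean CPM + 1), log scale) for the 323 induced genes. Dots are genes, red for the 65 persistent, grey for the 213 partly reverted and blue for the 45 reverted ones. The dashed and dotted lines mark 80% and 20%, which define the classes.

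The other induced genes were sorted by the same measure into 213 partly reverted genes, with a retained share of 20% to 80%, and 45 reverted ones with less. The persistent genes had the smallest rises, with a median of 0.78 against 0.93 and 1.02. The 4h rise is the divisor of the retained share, so this order is in part built into the classes. Of 21 immediate-early and feedback genes of ERK looked at, 19 were tested, all 19 were called higher at 4h, 18 were called lower after the inhibitor, and 0 were members, which the condition on the retained share favours. Of the 15 that met the conditions on induction, 7 were reverted and 8 partly reverted. Dusp6, a phosphatase of ERK, had means of 1.25, 30.2, 55.2 and 1.59 CPM at 0h, 2h, 4h and in rev, which gave a retained share of 4.36%. The median log2 fold change of these 19 genes was 2.01 at 4h and 0.37 in rev against 0h.

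Actin cytoskeleton genes and SRF targets gave 23 tested genes from a list of 30. At 4h 16 were called higher than at 0h and in rev 13 were, against 17.2% and 12.4% of all genes. The inhibitor group was called lower than 4h in 3, against 8.43% of all genes. Actb, Srf and Vcl were members, and 4 others were partly reverted. Actg1, the other cytoplasmic actin, retained 74.9% of its rise with means of 96.9, 161, 174 and 150 CPM, and Actn4, an actinin, retained 69.3% with means of 117, 164, 215 and 178 CPM. Zyx, zyxin of focal adhesions, retained 59.6% and had means of 3.27, 12.9, 19.4 and 9.86 CPM. Cfl1 (cofilin) and Ccn2 kept more than their whole 4h rise, at 114% and 107%, and missed the set because that rise was 0.57 and 0.56, under the minimum of 0.6.

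A list of 22 ribosome biogenesis factors held 0 members, although 17 were called higher at 4h, 12 in rev against 0h and 1 lower in rev than at 4h. Their median log2 fold change at 4h was 0.33. The members Rrp8 and Rbm19, which act in ribosomal RNA maturation, were not on this list. Of 13 formative epiblast genes tested, 7 were called higher at 4h, 4 were called lower after the inhibitor, and 0 were members. Naive pluripotency factors (15 tested) and amino acid supply and stress response genes (14 tested) held 0 members too, with 5 and 2 genes called higher at 4h and 6 and 5 lower. In rev against 4h, 8 naive factors were called higher and 4 lower, and among the amino acid genes 2 and 2. Over all genes tested, 17.2% were called higher and 16.8% lower at 4h than at 0h. In rev, 12.4% were called higher than at 0h, and 7.93% were called higher and 8.43% lower than at 4h.

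The persistent, partly reverted and reverted genes were then set side by side in transcript features that the choice did not use, as a description. ATTTA, the letters of AU-rich elements that mark short-lived transcripts, occurred at least 3 times in the annotated 3′ UTR of 30.2% of the 63 persistent genes with such a UTR. The share was 52.6% of 211 partly reverted genes, 44.4% of 45 reverted genes and 34.4% of 11314 genes tested. Per kilobase of 3′ UTR there were 1.75, 2.16, 2.34 and 1.81 such runs, and the median UTR was 1020, 1400, 1220 and 984 bases long. Median GC content of the transcript with the longest coding sequence was 54.8% in the persistent genes, 49.5% in the partly reverted, 51.5% in the reverted and 50.6% in all genes. The median gene spanned 21.0 kb in the persistent class, 22.7 kb in the partly reverted, 11.5 kb in the reverted and 22.8 kb over all genes. The uninduced level per kilobase of exon, which the choice did use, had medians of 3.94, 2.93, 2.65 and 2.85 CPM per kb in the same order. No difference between these classes was tested.

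Whether the pattern held in cells not used to choose it was asked by choosing genes in the 8 libraries of 1 clone and testing them in the 8 of the other. The same conditions, applied to clone 4 alone, picked 81 genes. In clone 8, 46 of these 81 (56.8%) were called higher in rev than at 0h by edgeR, with an adjusted p under 0.05 over all genes, against 7.56% of all genes, and 1 (1.23%) was called lower in rev than at 4h, against 2.6%. Their median retained share was 0.884 of the 4h rise in clone 4 and 0.879 in clone 8, the second over the 78 that rose there. Applied to clone 8 alone, the conditions picked 118 genes, of which 66 (55.9%) were called higher in rev than at 0h in clone 4, against 6.78% of all genes. Of these 118, 13 (11%) were called lower in rev than at 4h in clone 4, against 5.86% of all. Their median retained share was 0.993 in clone 8 and 0.903 in clone 4, over the 105 that rose there.

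Genes picked as partly reverted or reverted gave other shares in the same test. Of 265 partly reverted genes from clone 4, 38.1% were called higher in rev than at 0h in clone 8 and 30.6% lower in rev than at 4h, and of 59 reverted genes 6.78% and 54.2%. In the other direction, 260 partly reverted genes gave 47.3% and 40.4%, and 51 reverted genes 11.8% and 62.7%. Induction itself carried over less often for the persistent picks. In clone 8 the 4h rise was called for 60.5% of them, 77% of the partly reverted and 69.5% of the reverted picks. In clone 4 these shares were 64.4%, 75.8% and 70.6%. Median log2 rises of persistent and partly reverted picks were 0.64 and 0.78 in clone 8, and 0.54 and 0.80 in clone 4. How far the smaller rise accounts for the fewer falls called in rev was not tested. The 0h library of clone 4 replicate 2 weighed on the result for the persistent genes. Without it the shares called higher in rev than at 0h were 36.4% (of 162 genes, from clone 4) and 29.4% (of 119, from clone 8), against 7.57% and 2.84% of all genes in the same fits. A clone then has 1 library at 0h, so the first value rests on a choice made with that lone library, and the second on a test that assumes it to vary like the libraries of the other groups. Leaving out any other library likewise leaves its group with 1 library in that clone. Leaving out rev clone 8 replicate 2, the library that stood apart, they were 48.1% and 58.4%, against 4.24% and 6.39% of all genes. The shares called lower in rev than at 4h ranged from 0% to 6.59% (from clone 4) and from 3.33% to 13.5% (from clone 8) when each library was left out, and both 6.59% and 3.33% came without rev clone 4 replicate 1, where 2.51% and 2.47% of all genes were so called. With library size alone, 76 genes were picked in clone 4 and 2.63% of them were called higher in clone 8, against 0.237% of all genes. With the RLE size factors of DESeq2 the shares were 58.4% and 54.9%, against 7.84% and 6.46%. Normalisation and the count filter were set over all 16 libraries.

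**Figure D4:**
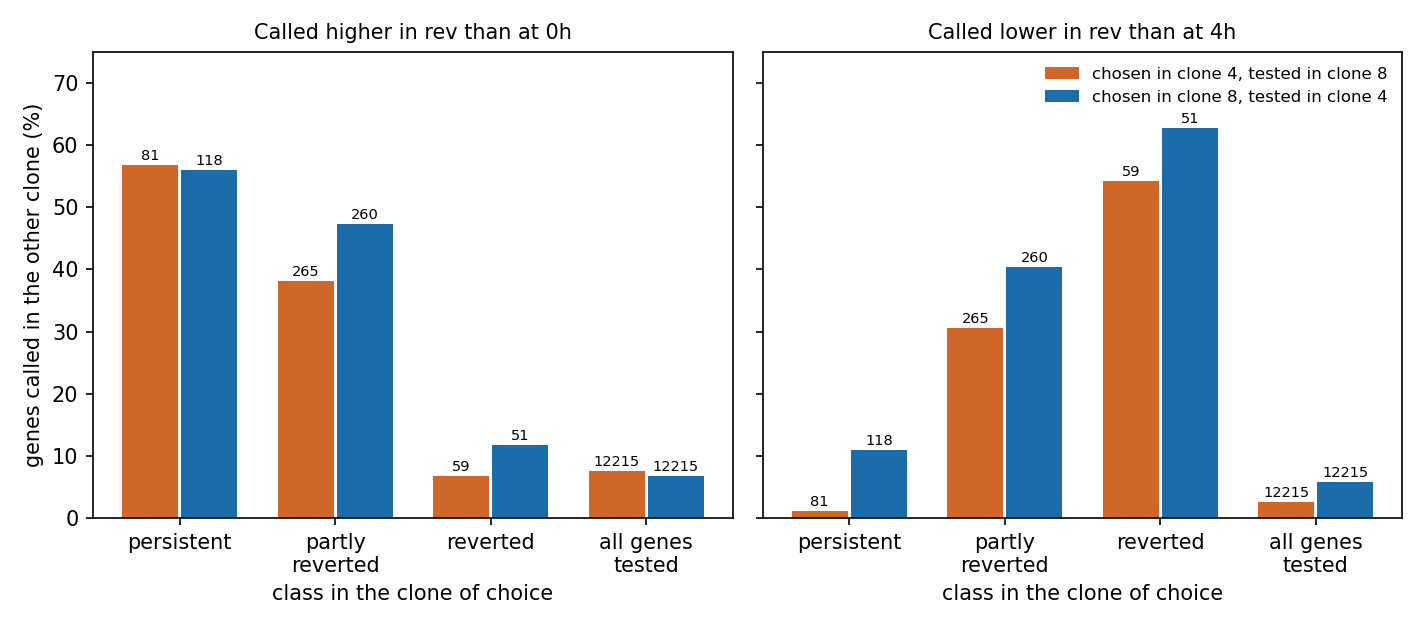
Genes chosen in 1 clone and tested in the other: share (%, vertical axis) called by edgeR as higher in rev than at 0h (left) and as lower in rev than at 4h (right), by class in the clone of choice. Orange bars are genes chosen in clone 4 and tested in clone 8, blue bars the reverse, the rightmost pair in each panel shows all genes tested, and the numbers above the bars count the genes. The persistent genes have the highest bars on the left, 56.8% and 55.9%, and on the right 1.23% and 11%, below the other 2 classes.

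Both clones picked 17 genes, 21% of those of clone 4 and 14.4% of those of clone 8. These were Actb, Atp8b2, Atxn7l2, Dido1, Fam189a2, Fam98b, Gclc, Klf16, Lad1, Msc, Myo1c, Nab2, Polr3d, Slc30a1, Srf, Zfp296 and Zhx1, and all 17 were among the 65. Of the 65, 29 were picked in clone 4 alone and 47 in clone 8 alone, these 17 included in both, and 6 in neither (6330403L08Rik, Eprn, Gsto1, Hk2, Meis2 and Sf3b4). The retained share was at least 80% in both clones in 40 members, with medians of 93.3% in clone 4 and 95.6% in clone 8. Over the 323 induced genes the retained shares of the clones correlated with a Pearson r of 0.598 and a Spearman rho of 0.673. This describes genes that share the same libraries and were in part chosen by the sum of both values. Socs3 had the widest gap among the members named here, at 3.149 in clone 4 and 1.487 in clone 8 as a ratio to the 4h rise, and that rise was 0.36 in clone 4 and 0.95 in clone 8 in log2(mean CPM + 1).

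**Figure D5:**
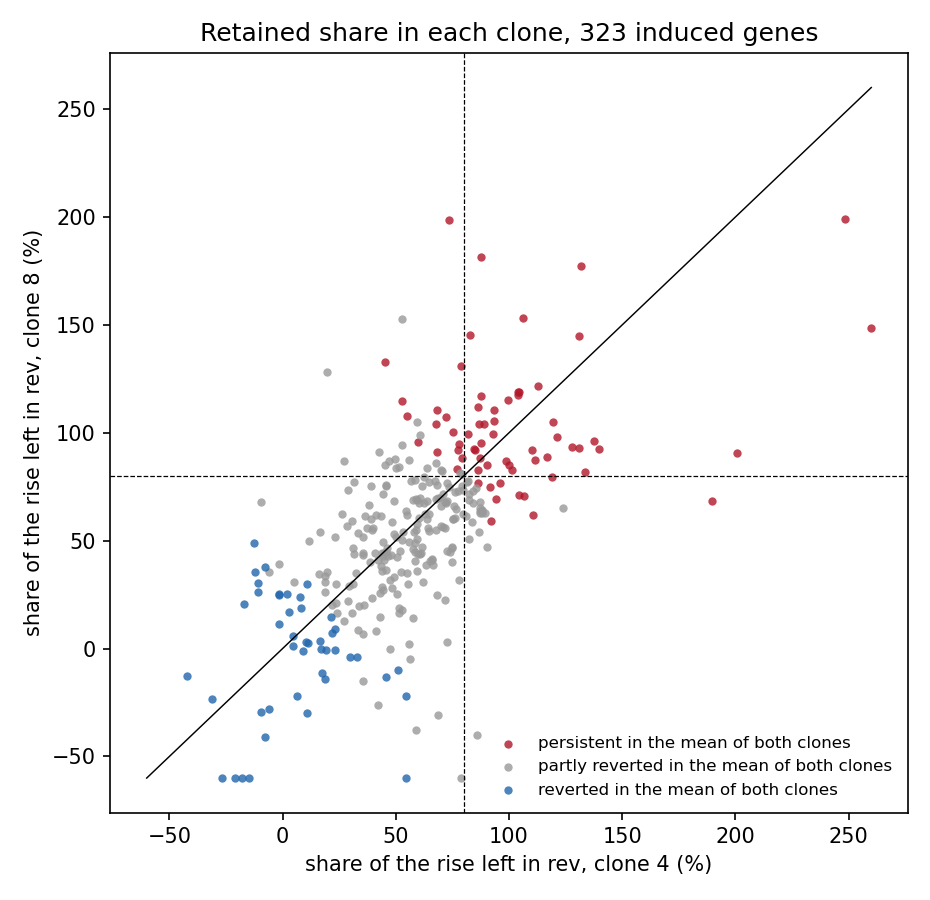
Retained share in clone 4 (horizontal axis, %) against clone 8 (vertical axis, %) for the 323 induced genes. Dots are genes coloured by their class in the mean of both clones, the solid line marks equal shares and dashed lines mark 80%. The axes end at -60% and 260%, and 7 genes beyond them are drawn at the edge.

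The clones differed in the level of many members, a contrast that the choice did not use, although it did set a minimum level at 4h. The wider set of genes only had to pass the low-count filter. Whether genes of matched level differ between the clones as often was not tested. In 29 of 65 members (44.6%) the level differed between clone 8 and clone 4 by edgeR with an adjusted p under 0.05, against 29.1% of all genes (3555 of 12215), and 15 were higher and 14 lower in clone 8. With library size alone 17 members and 2125 of all genes were called, and in the 0h libraries only 7 and 833. Gsto1 had the smallest p, at a log2 difference of 1.16 (SE 0.06, edgeR adjusted p = 1.144e-15), with clone 8 above clone 4 in every group. Fam189a2 followed at 1.30 (SE 0.11, edgeR adjusted p = 4.702e-11), and Adgrg6 was lower in clone 8 by -0.76 (SE 0.09, edgeR adjusted p = 2.305e-08). Jup, plakoglobin of desmosomes and adherens junctions, was higher in clone 8 by 0.45 (SE 0.05, edgeR adjusted p = 4.05e-08). It was at 44.8, 41.0, 52.7 and 61.1 CPM at 0h, 65.5, 64.4, 88.1 and 96.4 at 2h, 71.6, 82.6, 99.9 and 98.7 at 4h, and 64.0, 71.7, 97.1 and 96.0 in rev. Myo1c, an unconventional myosin at membranes, was higher by 0.49 (SE 0.06, edgeR adjusted p = 4.32e-08), at 23.6, 26.7, 31.2 and 37.1 CPM at 0h, 33.1, 29.3, 42.5 and 41.3 at 2h, 40.4, 38.1, 56.8 and 54.5 at 4h, and 38.7, 39.5, 56.7 and 63.1 in rev. In Gsto1, Fam189a2, Adgrg6, Jup and Myo1c the 2 clones did not overlap in any of the 4 groups.

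The response to 4 h of induction differed between the clones in 2 members, against 0.311% of all genes. Plec rose less in clone 8, by -0.83 on the log2 scale (SE 0.15, edgeR adjusted p = 0.00636), and so did Mgea5, by -0.67 (SE 0.14, edgeR adjusted p = 0.0127). The call for Plec was lost without 0h clone 8 replicate 2 (edgeR adjusted p = 0.0539) or 4h clone 8 replicate 2 (0.0806), over a range of 0.00143 to 0.0806 when each library was left out. For Mgea5 it was lost without 0h clone 4 replicate 1 (edgeR adjusted p = 0.125), 0h clone 8 replicate 2 (0.0608), 4h clone 4 replicate 1 (0.161), 4h clone 8 replicate 1 (0.0635) or 4h clone 8 replicate 2 (0.0987), over a range of 0.00399 to 0.161. With library size alone both calls were lost. Without 4h clone 4 replicate 2, Dcaf12l1 was called as well, for 3 members in all. The clones were called by edgeR as different in 0 members for the rise at 2h, the rise left in rev and the change from 4h to rev, against 0.0901%, 0.0573% and 0.00819% of all genes. For the rise at 2h, 1 member, Plec, was called without 0h clone 8 replicate 1, 4h clone 4 replicate 1 or 4h clone 4 replicate 2.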

How the data were processed

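RNA-seq libraries of rRNA-depleted total RNA were made with a NEBNext Ultra II kit, per the labels' protocols. The authors deposited raw read counts per gene for 16 libraries. Alignment used STAR 2.5.3a on mm10 after bcl2fastq 2.19.1, per the submitters' processing notes, and the counting tool, annotation release and strand setting are not given in the sources used here. Of 52636 identifiers, 52489 matched GENCODE M21 (GRCm38), which gave symbols, positions and exons, and 147 did not.

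Counts were scaled by TMM and 12215 genes passed the filter of edgeR on low counts. Tests used the quasi-likelihood test of edgeR 4.0.16 (R 4.3.3) with group and clone as terms, over all 16 libraries, and Benjamini-Hochberg adjusted p-values over all genes, called under 0.05. Genes picked in 1 clone were tested in the 8 libraries of the other. Members and gene lists were chosen with earlier results of these data known. The genes given in every library are the 12 with the largest rise, the 5 most abundant at 4h apart from them, members of the gene lists, up to 5 each with the smallest p for clone level and for clone difference in response, and the genes next to the retained share of 0.8. Others were named by role after their values were known. Each library had between 2172651 and 12680303 counts, and 3 counts were taken as the floor. The steps were tested on simulated data. Alternatives were RLE size factors, library size alone, other filters, pseudocounts of 0.5 and 2 in place of 1, other limits on the rise and the retained share, DESeq2 1.42.0, fits without the clone term, with a replicate block or on the compared groups only, and each library left out. The samples with the same replicate number did not deviate together.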

Additional observations from a re-analysis of the deposited data

Results flagged for a closer look

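A library lay apart from the other 3 of its group, by Dixon's test at the 95% level, in 11 of the 260 group values tested (65 members in 4 groups), where chance gives about 1 in 20, or 13, if the 4 libraries of a group differ by chance alone. Each group held 2 libraries of each clone, and 29 members differed in level between the clones, so that number is no more than a guide. Among regulators and RNA processing genes, Klf16 was lowest in 2h clone 8 replicate 1 at 37.0 CPM (others 43.2 to 44.0), Maml1 was highest in 4h clone 4 replicate 2 at 34.3 (28.9 to 29.7) and Med29 was highest in 4h clone 8 replicate 2 at 10.3 (4.62 to 5.37). Polr3d was lowest in 2h clone 4 replicate 2 at 16.6 CPM (21.7 to 22.4), Kti12 was highest in 0h clone 8 replicate 1 at 5.95 (4.62 to 4.70) and Rrp8 was lowest in 4h clone 4 replicate 2 at 19.7 (23.4 to 23.9). Actb was lowest in 0h clone 4 replicate 2 at 1050 CPM (1200 to 1220), and Arap2 was highest in the same library at 8.06 (6.25 to 6.43). Sertad1 was highest in rev clone 8 replicate 2 at 14.0 CPM (5.86 to 6.73), Mfsd4a was lowest in 0h clone 4 replicate 1 at 3.26 (4.92 to 5.15) and Zcchc3 was lowest in 2h clone 4 replicate 1 at 29.5 (32.1 to 32.5).

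The rise from 0h to 4h differed between the clones for Plec, by -0.833 on the log2 scale, and for Mgea5, by -0.673, both smaller in clone 8.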

How the results depend on the processing

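Of 421 alternative values of the main results, 362 stayed within 1.5 times the value reported. Fits that left out a library gave 288 of the 421, and 258 of these 288 stayed within that range. The tally says little where the choice of the genes fixes a count. The set held 65 genes; it held 9 with library size alone, 99 without the 8 most abundant gene models (chosen after seeing the data, as was leaving out libraries in the clone test), 111 and 40 with retained shares of 0.7 and 0.9, and 11 with a rise of at least 1. Leaving out each library gave 59 to 85 genes, 44 to 63 of them shared, and 15 members were kept every time.

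With library size alone, 21 members were called higher at 2h than uninduced, 1 at 4h than at 2h, 0 in rev than at 4h and 14 in rev than uninduced, where 204, 88, 57 and 105 of all 12215 genes were called (1390, 464, 969 and 1518 with TMM). Then 0 members were called lower at 4h than at 2h (12 of all genes), 2 were so called after the inhibitor (1671), 17 members differed in clone level (2125) and 0 in the clone difference at 4h (34). In the clone test that scaling gave 2.632% higher and 0% lower from clone 4, and 100% higher and 0% lower from clone 8, where 2 genes were picked. Fewer genes were called in all: 1518 higher and 1204 lower became 105 and 905 in rev against 0h, 464 and 430 became 88 and 12 in 4h against 2h, and 2098 and 2048 became 554 and 327 in 4h against 0h, while in rev against 4h 969 and 1030 became 57 and 1671. As a percent of the genes called, the higher ones went from 55.8% to 10.4%, from 51.9% to 88% (41.7% without the low-count filter), from 50.6% to 62.9% and from 48.5% to 3.3%. The median of all genes was then -0.32, 0.10, 0.09 and -0.41.

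Without the low-count filter, 9 members were called higher at 4h against 2h, 2 were called lower after the inhibitor, 2 differed between clones at 2h and 2.222% were lower in the clone test from clone 4, against 0.7194% without the 8 most abundant models. Without the clone term, 5 were higher and 1 lower at 4h against 2h, and 2 higher and 0 lower in rev against 4h. With only the 2 groups compared, and with DESeq2, 2 members were called lower after the inhibitor, and DESeq2 called 2 clone differences at 2h. In 0h libraries only, 7 differed in clone level (833 of all genes). The cause was not tested.

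Leaving out each library gave 8 to 15 members higher and 2 to 3 lower at 4h against 2h, 0 to 2 lower in rev against 4h, and 0 to 1 and 0 to 3 clone differences at 2h and 4h. The clone test gave 36.42% to 64.79% higher and 0% to 6.593% lower from clone 4, and 29.41% to 58.42% and 3.333% to 13.5% from clone 8.

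The replicate numbers did not pair the samples (their deviations correlated with a mean r of 0.0109, from -0.33 to 0.198, in 12 group pairs). With a replicate block, against 0h 63 members were higher at 2h, 65 at 4h and 65 in rev, 13 were higher and 3 lower at 4h against 2h, 3 higher and 1 lower in rev against 4h, and 2 differed between clones at 4h. The floor of 3 counts was highest in rev clone 8 replicate 2, at 1.35 CPM, and 1.31 CPM in 2h clone 4 replicate 2, the library with the fewest counts (2172651), which limits the 14 members under 10 CPM.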

Other observations

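The members' summed level was 2950 to 3170 CPM in the 0h libraries, 4780 to 5560 at 2h, 5220 to 5620 at 4h and 4740 to 5580 in rev. The 15 members that met every condition whichever library was left out were Atp8b2, Atxn7l2, Bend3, Cdk12, Dido1, Elac2, Gclc, Klf16, Mgea5, Nab2, Slc30a1, Srf, Trim71, Zfp296 and Zhx1, so that transcription and chromatin regulators made up most of them. The 11 kept in fewer than 12 of the 16 fits were 6330403L08Rik, Adgrg6, Bex1, Gsto1, Hk2, Myo1c, Plpp2, Rrp8, Sf3b4, Tle4 and Urm1.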
